A study of Mus musculus with 20 samples.

Results

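The comparison set 10 libraries from the discs of mice given MDL-800 against 10 libraries from mice given the vehicle, with both tissues of the disc in the same fit. All 20 of the 20 libraries of the series entered it, 10 from nucleus pulposus (NP) and 10 from annulus fibrosus (AF), and they were chosen by treatment and tissue label, not by any measured value. Tissue was a term of the model and no interaction was fitted, so the value of each gene is 1 difference, MDL-800 minus vehicle, shared by NP and AF. The mice were of the BL6 background and received weekly intraperitoneal injections from 18 months of age over 6 months, either DMSO alone (vehicle) or the same volume of DMSO carrying MDL-800. All were killed at 24 months, and the controls therefore carry the DMSO and the injections as well. Each of the 4 groups (NP vehicle, NP MDL-800, AF vehicle, AF MDL-800) held 5 libraries of total RNA from tissue dissected under a microscope. The labels number the libraries 1, 2, 3, 5 and 6 for NP vehicle, 15, 18, 19, 20 and 22 for NP MDL-800, 8, 9, 10, 12 and 13 for AF vehicle, and 25, 27, 28, 29 and 30 for AF MDL-800, and values are listed below in that order. The labels do not tie libraries to single animals, so NP and AF libraries may share animals, and p-values measure the spread between these libraries.

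MDL-800 is a small molecule that activates SIRT6 allosterically. SIRT6 is an NAD-dependent enzyme on chromatin that removes acetyl groups from histone H3 and is known for roles in DNA repair, metabolism and the restraint of inflammatory genes. The NP is the gelatinous, notochord-derived core of the intervertebral disc, and the AF is the lamellar fibrous ring around it, a tissue closer to tendon and cartilage.

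The expression unit is FPKM (fragments mapped to a gene per kilobase of its length, scaled to the total of the library), divided by 1 scaling factor per library (0.933 to 1.06), and tests used log2(scaled FPKM + 1), on which differences of weakly expressed genes are understated. The steps between low FPKM values placed the depth of the libraries at 12400000 to 22500000 fragments, and the common difference between treatments was -210000 fragments (exact permutation within tissue, two-sided, p = 0.849). The tissue labels matched their markers. The NP markers (15 of 16 in the table, none at 0 in every library) summed to 26400 to 33800 scaled FPKM in NP libraries and 2580 to 15500 in AF libraries, and the AF and tendon-like markers to 883 to 1660 in NP and 3300 to 10300 in AF. Because whole tissue was measured, fewer cells of a type and less RNA per cell cannot be told apart.

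No gene passed the comparison over both tissues. By limma, 0 of 16383 (0%) reached an adjusted p under 0.05; the smallest was 0.138, and the median standard error was 0.115 in log2 units. The unadjusted level of 0.05 was reached by 1460 genes (8.91%), where 819 would reach it on average if nothing differed, and of these 958 (5.85%) were higher and 502 (3.06%) lower under MDL-800. Among them 90 had a difference of at least 1 on the log2 scale, 55 higher and 35 lower. Since none passed, the values below are described and not called.

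The count of 0 depended on single AF libraries. Leaving out AF MDL-800 27 gave 17 genes at an adjusted p under 0.05, leaving out AF vehicle 10 gave 13, AF vehicle 8 gave 5, AF MDL-800 28 gave 4 and NP MDL-800 19 gave 1, and leaving out any of the other 15 libraries gave 0. With AF MDL-800 27 left out, 1445 genes were higher and 719 lower at the unadjusted level. A fit with 1 weight per library called 14 genes.

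Within the tissues the same test gave 41 genes (0.25%) at an adjusted p under 0.05 in NP alone and 0 (0%) in AF alone, and 2311 (14.1%) and 270 (1.65%) at the unadjusted level. The difference between the tissues' effects passed in 0 genes (0%, smallest adjusted p 0.9997), with 611 (3.73%) at an unadjusted p under 0.05. Of the 1460 genes, 1430 (97.9%) had the same sign in both tissues, beside 57.9% of all genes tested, but the 1460 were chosen by a fit that averages the tissues, so this share is largely set by that choice and is no sign of agreement. In 1168 of them (80%, beside 61% of all genes) the difference was larger in NP.

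All 5 MDL-800 libraries lay above all 5 vehicle libraries in NP for 574 genes (3.5%), and below them for 164 (1%). In AF this held for 21 genes (0.128%) above and 16 (0.0977%) below. No gene was separated in the same direction in both tissues (0 above, 0%; 0 below, 0%). A further 41 genes (0.25%) had an unadjusted p under 0.05 in the common fit and in each tissue with the same sign, and 23 of these 41 were small nuclear, nucleolar or Cajal body RNAs, or 14 of 32 with genes of identical values counted once.

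**Figure D1:**
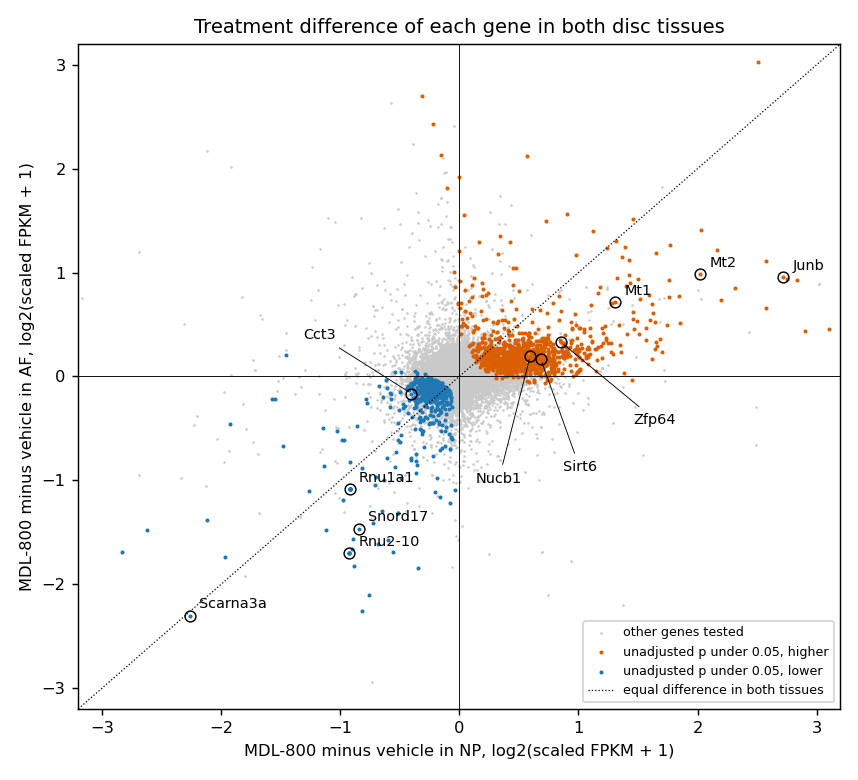
Each point is 1 gene, with the MDL-800 minus vehicle difference in NP on the x axis and in AF on the y axis, both on the log2(scaled FPKM + 1) scale; orange and blue mark the 958 higher and 502 lower genes at an unadjusted p under 0.05, the dotted line equal differences, and 13 genes lie outside the plotted range. The orange points spread along the NP axis, while Rnu1a1, Rnu2-10 and Snord17 lie further down on the AF axis than to the left on the NP axis.

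Mt1 and Mt2 encode metallothioneins, small cysteine-rich proteins that bind zinc and copper, and their promoters are known to be activated by the zinc sensor MTF1 at metal response elements. Both were higher in the mean of MDL-800 libraries in both tissues. Mt1 (ENSMUSG00000031765, chr8:94179082-94180327, mm10, plus strand) measured 135, 103, 152, 149 and 159 scaled FPKM in NP with vehicle and 227, 289, 517, 322 and 439 in NP with MDL-800. In AF its levels were 123.4, 96.1, 98.5, 62.3 and 80.5 with vehicle and 221, 95.5, 81.8, 171 and 239.5 with MDL-800. The NP groups did not overlap, and in AF libraries 25, 29 and 30 lay above every vehicle library while 27 and 28 lay among them. The common difference of Mt1 was 1.01 (SE 0.21, log2 scale), with a limma adjusted p of 0.1889, from 1.31 in NP and 0.71 in AF.

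Mt2 (ENSMUSG00000031762, on the same strand just upstream of Mt1) measured 37.1, 24.9, 26.6, 42.1 and 63.6 scaled FPKM in NP with vehicle and 111, 125, 247, 98.6 and 239.8 in NP with MDL-800. In AF the levels were 80.2, 33.4, 40.4, 22.5 and 43.4 with vehicle and 156, 28.7, 44.9, 103 and 165 with MDL-800. The pattern over libraries was that of Mt1, with AF MDL-800 27 and 28 low and the NP groups apart. Its common difference was 1.51 (SE 0.33, adjusted p 0.1889), from 2.02 in NP and 0.99 in AF, and the difference between tissues had an unadjusted limma p of 0.1194. Without AF MDL-800 27 the adjusted p was 0.03443 for Mt1 and 0.02652 for Mt2, and without AF MDL-800 28 it was 0.04067 for Mt1.

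The 250 bases upstream of the RefSeq starts of both genes (GRCm38.p6) are printed because both genes are known metal-responsive neighbours and had similar values over the libraries. Capitals mark matches to the core letters of the metal response element, TGCACNC or TGCGCNC, searched on both strands. Mt1 lies at chr8:94178839-94179088 and Mt2 at chr8:94172368-94172617, both on the plus strand.
Mt1: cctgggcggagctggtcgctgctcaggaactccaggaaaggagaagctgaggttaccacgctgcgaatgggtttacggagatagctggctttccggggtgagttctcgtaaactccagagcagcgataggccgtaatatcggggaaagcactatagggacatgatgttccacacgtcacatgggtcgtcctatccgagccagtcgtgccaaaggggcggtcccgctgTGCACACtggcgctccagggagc
Mt2: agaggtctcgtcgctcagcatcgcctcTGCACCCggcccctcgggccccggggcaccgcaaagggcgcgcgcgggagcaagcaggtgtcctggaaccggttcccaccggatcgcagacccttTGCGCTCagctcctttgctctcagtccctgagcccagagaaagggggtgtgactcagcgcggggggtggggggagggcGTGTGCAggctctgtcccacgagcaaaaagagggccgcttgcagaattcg
The window of Mt1 held 1 match and that of Mt2 held 3, and 21.3% of 27025 upstream windows of the same length held at least 1. A match is a description of the letters only. The metallothionein and zinc response list, which also holds zinc transporters, had 7 tested genes. Of these 2, Mt1 and Mt2, were higher and 0 lower at an unadjusted p under 0.05, beside 5.85% higher over all genes. The list's median difference was 0.03, beside -0.01 over all genes tested.

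**Figure D2:**
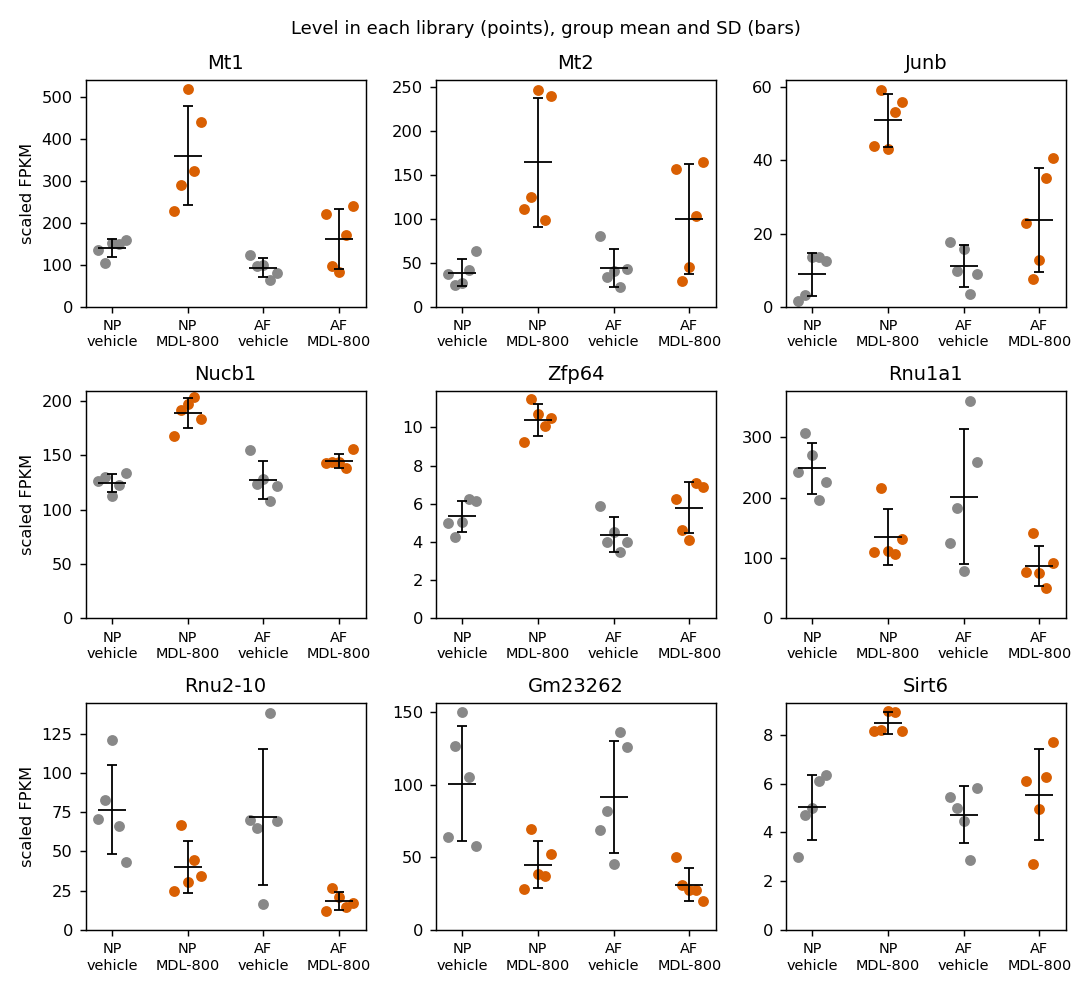
Scaled FPKM of 9 transcripts in each library (points) by tissue and treatment, with the group mean and SD (n = 5 libraries per group) as bars. For Mt1, Mt2, Junb, Nucb1, Zfp64 and Sirt6 all 5 NP MDL-800 libraries lie above all 5 NP vehicle libraries, and the AF groups overlap in all 9 panels. Such separation in NP held for 574 of all genes tested (3.5%), and all shown but Sirt6 were chosen by small p in the common fit.

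Immediate early genes are transcribed within minutes of a stimulus, handling of tissue included, and encode transcription factors of the FOS, JUN, EGR and NR4A families and brakes on signalling. In the comparison 15 of 15 tested had a positive common difference, 9 of 15 (60%) with an unadjusted p under 0.05 and 0 lower, beside 5.85% higher over all genes. Their median difference was 0.67 on the log2 scale, 0.73 in NP and 0.53 in AF, beside -0.01 over all genes. In the single tissues 6 of the 15 were higher at that level in NP, beside 9.11% of all genes, and 1 of 15 in AF, beside 0.922%. None passed after adjustment, and the sign of Jund turned with the GC trend removed (-0.13) and that of Dusp1 without the 4 libraries of low GC slope described below (-0.17).

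Junb (ENSMUSG00000052837), a subunit of the AP-1 transcription factor, had the largest difference of the list. It measured 1.54, 3.11, 13.5, 13.6 and 12.3 scaled FPKM in NP with vehicle and 43.9, 59.2, 43.0, 53.1 and 55.9 in NP with MDL-800. In AF it measured 17.7, 9.74, 15.7, 3.5 and 9.04 with vehicle and 22.8, 7.51, 12.7, 35.2 and 40.7 with MDL-800. The NP groups were far apart, NP vehicle 1 and 2 were the lowest libraries of all, and in AF MDL-800 only 25, 29 and 30 exceeded every vehicle library. The common difference was 1.84 (SE 0.41, limma adjusted p 0.1889), from 2.72 in NP and 0.96 in AF, and without AF MDL-800 27 the adjusted p was 0.03737.

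Zfp36, which encodes an RNA-binding protein that destabilises cytokine transcripts, was at 12.7, 7.26, 25.7, 12.0 and 19.2 scaled FPKM in NP with vehicle and 31.7, 27.6, 18.4, 26.7 and 18.9 in NP with MDL-800. In AF it was at 34.4, 15.1, 39.99, 19.6 and 32.8 with vehicle and 33.8, 52.5, 32.6, 54.0 and 38.1 with MDL-800. The groups overlapped in both tissues, and the common difference was 0.67 (SE 0.20, adjusted p 0.3844).

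Egr1, a zinc finger transcription factor, read 13.8, 53.7, 137, 67.0 and 82.4 in the vehicle libraries of NP and 189, 224, 118, 71.8 and 100.5 in those with MDL-800, on the same scale. With vehicle the AF libraries read 27.1, 20.0, 111, 26.5 and 45.2, and with MDL-800 62.1, 114, 50.8, 119 and 36.6. NP vehicle 1 was the lowest NP library and AF vehicle 10 the highest AF vehicle library, as they also were for Fosb and Nr4a1. The common differences at an unadjusted p under 0.05 were 1.02 for Egr1, 1.27 for Fosb (AP-1), 1.08 for Ier2, 0.99 for Atf3 (a stress-induced repressor), 0.78 for Nr4a1 (an orphan nuclear receptor), 0.49 for Btg2 (an antiproliferative factor) and 0.35 for Egr3. Fos (0.85), Jun (0.42), Ier3 (0.42), Jund (0.29), Egr2 (0.14) and Dusp1 (0.13) missed that level. Dusp1 encodes the phosphatase that switches off MAP kinases and had nearly the same mean in both AF groups, 112.2 ± 44.6 with vehicle and 111.7 ± 38.1 with MDL-800 (SD, n = 5 each).

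The number of these genes at the unadjusted level depended on a few libraries. It was 2 of 15 without NP vehicle 1 and 2, AF vehicle 12 and AF MDL-800 27, the libraries set apart by GC content below, 2 with the GC slope in the model, 9 with the GC trend removed from each library, 5 with the level of Y-linked genes in the model, and 13 without AF vehicle 10. How long each tissue waited before it was placed in RNA preservative is not given in the sources used here, and its part in these values was not tested. Of the immediate early genes, 12 had an upstream window in RefSeq: 2 (Btg2 and Dusp1) held the cAMP response element TGACGTCA, beside 1.6% of all windows, 1 (Zfp36) held a serum response CArG box, beside 1.41%, and 0 held the AP-1 site TGANTCA, beside 6.85%. Junb held none of the 3. The shorter TGACG, a part of the cAMP response element, was in 7 of the 12 windows, beside 17.8% of all windows. Those 7 were Atf3, Btg2, Dusp1, Fos, Fosb, Junb and Nr4a1. The metal response core searched above was in 6 of these 12 windows, beside 21.3% of all windows.

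Small nuclear RNAs (snRNAs) are the RNA cores of the spliceosome, small nucleolar RNAs (snoRNAs) guide the modification of ribosomal RNA, and Cajal body RNAs guide that of snRNAs. Of 102 tested genes of these classes, 35 (34.3%) were lower and 0 higher at an unadjusted p under 0.05, beside 3.06% and 5.85% over all genes. Counting genes with identical values once left 26 of 84. The median difference was -0.69 on the log2 scale, -0.62 in NP and -0.80 in AF, with 89 of 102 negative. In NP alone 33 were lower and 3 higher, beside 4.99% and 9.11% of all genes. In AF alone 29 were lower and 0 higher, beside 0.726% and 0.922%. These counts within a tissue include genes with identical values. By class, 16 of 42 snRNAs, 14 of 51 snoRNAs and 5 of 9 Cajal body RNAs were lower at that level.

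FPKM divides by length, and a length reduced by 180 nucleotides, 1 value chosen for all libraries together, fitted the FPKM steps best among those tried. Of the 102 genes, 70 are no longer than that. How the program that made the values treated such transcripts is not given in the sources used here. A wider set of small RNA genes, which adds micro, ribosomal, ribozyme and miscellaneous RNAs to these classes, was summed as well. Its share of the summed FPKM ranged from 8.52% to 31.1% over the libraries and did not separate the treatments (common difference -1.76 percentage points, exact permutation within tissue, p = 0.547). That difference was 2.614 points in NP and -6.135 in AF. The share of the 102 genes alone was not measured.

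**Figure D3:**
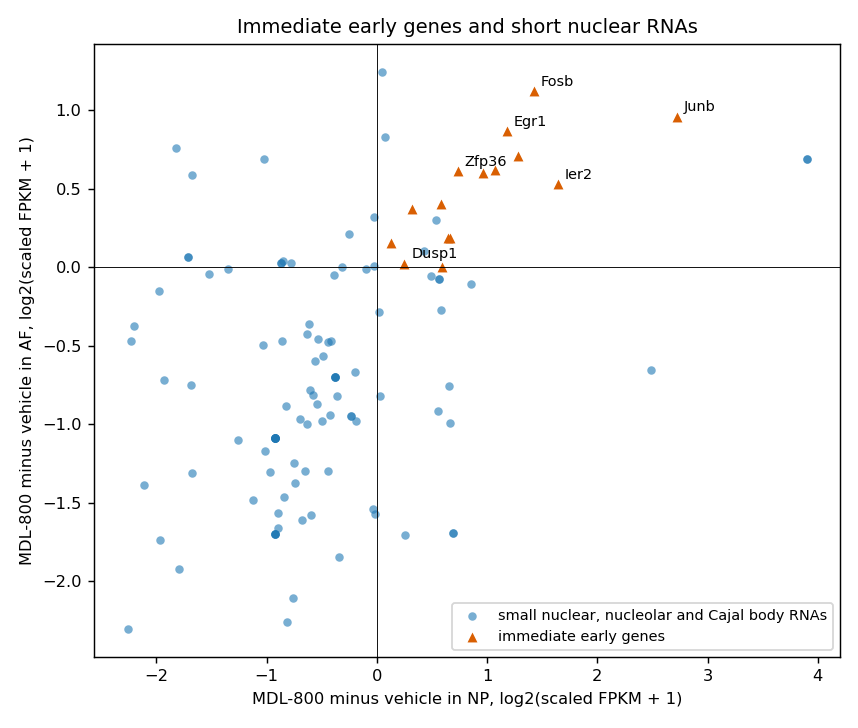
Common members of 2 groups of transcripts, with the MDL-800 minus vehicle difference in NP on the x axis and in AF on the y axis (log2 scale); blue circles are the 102 small nuclear, nucleolar and Cajal body RNAs and orange triangles the 15 immediate early genes. Of the immediate early genes 14 lie in the upper right, and 69 of the 102 short RNAs lie in the lower left.

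The sequences of U1 and U2, which carry the largest number of these genes, show why their copies cannot be separated. They are the GENCODE M21 transcripts on mm10, Rnu1a1 at chr11:87422867-87423030 and Rnu2-10 at chr11:101658238-101658428, both plus strand and noncoding. Capitals in U1 mark the segment that pairs with the 5′ splice site of an intron, and capitals in U2 the segment that pairs with its branch point.
Rnu1a1: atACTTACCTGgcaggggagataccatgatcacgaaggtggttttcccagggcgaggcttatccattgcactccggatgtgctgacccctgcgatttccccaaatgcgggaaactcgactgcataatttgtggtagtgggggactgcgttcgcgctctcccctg
Rnu2-10: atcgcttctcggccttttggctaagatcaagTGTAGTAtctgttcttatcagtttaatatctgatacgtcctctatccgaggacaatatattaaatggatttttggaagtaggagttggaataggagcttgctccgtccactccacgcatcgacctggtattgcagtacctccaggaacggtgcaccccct
Rnu1a1 shares its 164 nucleotides and all of its values with 6 other genes, and Rnu2-10 its 191 nucleotides and values with 3 others, so each stands for 1 measurement of a set of copies.

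U1 (Rnu1a1, ENSMUSG00000095969) measured 243, 307, 271, 196 and 226 scaled FPKM in NP with vehicle and 109, 216, 111, 106 and 131 in NP with MDL-800. In AF it measured 125, 183, 77.7, 361 and 259 with vehicle and 76.1, 141, 74.4, 50.8 and 91.2 with MDL-800. In NP only MDL-800 library 18 reached the vehicle range, and in AF vehicle libraries 12 and 13 were high and vehicle 10 low. The common difference was -1.01 (SE 0.23, limma adjusted p 0.1889), -0.92 in NP and -1.09 in AF.

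U2 (Rnu2-10, ENSMUSG00000065944) measured 70.7, 82.9, 121, 66.0 and 43.0 scaled FPKM in NP with vehicle and 24.5, 66.6, 30.5, 44.6 and 34.6 in NP with MDL-800. The AF libraries measured 70.1, 65.2, 16.4, 139 and 69.2 with vehicle and 11.9, 26.3, 21.1, 14.8 and 17.0 with MDL-800. AF vehicle 10 was again the low vehicle library, and the other 4 lay above all AF MDL-800 libraries. The common difference was -1.31 (SE 0.30, adjusted p 0.1889). Without AF vehicle 10 the adjusted p was 0.03237 for both U1 and U2, and the 11 gene copies of the pair then made up most of the 13 genes called.

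Gm23262, an unnamed snoRNA gene on chromosome 7, shared the smallest adjusted p of the comparison, 0.138. It measured 64.1, 127, 149.8, 105 and 57.6 scaled FPKM in NP with vehicle and 28.0, 69.2, 38.3, 37.0 and 51.9 in NP with MDL-800. In AF it measured 68.5, 81.7, 45.0, 137 and 126 with vehicle and 50.4, 31.0, 27.0, 27.4 and 19.8 with MDL-800. The groups overlapped by a single MDL-800 library in each tissue (18 in NP, 25 in AF). Its common difference was -1.30 (SE 0.23).

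Snora73a and Snora73b, box H/ACA RNAs of the U17 type that take part in processing of the small ribosomal subunit RNA, are 205 nucleotides long each and differ at 7 positions, so reads may be split between them. Snora73b measured 97.1 ± 39.9 (vehicle) and 59.7 ± 24.8 (MDL-800) scaled FPKM in NP, against 104.1 ± 50.6 and 48.3 ± 4.96 in AF (SD, n = 5 each), a common difference of -0.83 (SE 0.22, adjusted p 0.3026), and that of Snora73a was -0.81. Snord17, a box C/D RNA, had -1.16 (SE 0.31, adjusted p 0.3026), with AF vehicle 12 and 13 at 206 and 163 scaled FPKM and all other libraries at or under 97.3. Scarna3a, a Cajal body RNA, stood at 0 in each of the 10 MDL-800 libraries. In vehicle libraries it was at 15.2, 10.5, 12.4, 0 and 0 in NP and 0, 6.68, 0, 21.6 and 15.9 in AF, so 4 vehicle libraries were at 0 as well. The filter of at least 1 FPKM in at least 5 libraries kept Scarna3a only through vehicle libraries. At 140 nucleotides it is also shorter than the length reduction of 180.

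Of the protein-coding genes, Nucb1 and Zfp64 had the smallest adjusted p on the higher side, 0.1478 each. Nucb1 (ENSMUSG00000030824, nucleobindin 1, a calcium-binding protein of the Golgi) measured 126, 129.9, 112, 122.5 and 134 scaled FPKM in NP with vehicle and 168, 192, 198, 204 and 184 in NP with MDL-800. In AF it measured 155, 124, 128, 108 and 122 with vehicle and 143, 144, 144, 139 and 156 with MDL-800. AF vehicle 8 was the only AF vehicle library inside the MDL-800 range, and the NP groups were apart. The common difference was 0.39 (SE 0.08), from 0.59 in NP and 0.20 in AF, and the difference between tissues had an unadjusted limma p of 0.004572 (adjusted 0.9997).

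Zfp64, a zinc finger transcription factor, measured 4.98, 4.27, 5.06, 6.22 and 6.13 scaled FPKM in NP with vehicle and 9.23, 11.5, 10.7, 10.1 and 10.5 in NP with MDL-800. In AF it measured 5.88, 3.97, 4.54, 3.49 and 4.01 with vehicle and 6.27, 4.61, 4.12, 7.06 and 6.88 with MDL-800. In AF vehicle library 8 was high and MDL-800 libraries 27 and 28 low. The common difference was 0.59 (SE 0.11), and without AF vehicle 8 the adjusted p was 0.02593 for Nucb1 and Zfp64 alike. Without AF MDL-800 27 it was 0.048 for Nucb1 and 0.03207 for Zfp64, and without AF MDL-800 28 it was 0.04067 for Zfp64.

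The other named genes on the higher side were Hip1r (0.65), which links clathrin coats to actin, Rad23b (0.44), a partner of the nucleotide excision repair protein XPC, Clpp (0.43), the protease of the mitochondrial matrix, and Dvl1 (0.46) and Dvl2 (0.37), transducers of Wnt signals. Their adjusted p ran from 0.1889 to 0.207. In all 5 the NP groups did not overlap and the AF groups did, where 3.5% of all genes tested lay apart and higher in NP. The 5 were chosen by small p in a fit that holds these NP libraries, so their separation in NP is largely set by that choice. Hip1r measured 8.93 ± 1.94 (vehicle) and 18.0 ± 2.78 (MDL-800) scaled FPKM in NP, against 10.6 ± 2.99 and 13.5 ± 2.53 in AF (SD, n = 5 each).

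On the lower side the named protein-coding genes had small differences. They were Cct3 (-0.28), a subunit of the TRiC chaperonin, Pfdn4 (-0.33), a subunit of prefoldin, which hands unfolded actin and tubulin to TRiC, Spg21 (-0.20) and Vapa (-0.22), a tether of the endoplasmic reticulum, with adjusted p of 0.274 to 0.3385. Cct3 measured 62.9 ± 7.55 (vehicle) and 47.3 ± 5.39 (MDL-800) scaled FPKM in NP, against 71.3 ± 7.85 and 63.3 ± 4.31 in AF (SD, n = 5 each). Spg21 was the only one of the 4 whose AF groups did not overlap, with 39.5, 37.6, 37.6, 34.3 and 38.9 scaled FPKM under vehicle and 33.5, 33.5, 33.1, 29.8 and 27.8 under MDL-800. In AF 16 of all genes tested (0.0977%) lay apart in this direction, and Spg21 was chosen by small p in the common fit.

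Predicted genes and pseudogenes gave the largest differences. The pseudogene Gm7332 was listed at 0 in all 5 NP MDL-800 libraries and at 6.49 to 29.4 scaled FPKM in NP vehicle. In AF it read 10.3, 17.8, 22.5, 36.2 and 16.1 with vehicle and 0.534, 29.1, 12.1, 0 and 0 with MDL-800, and its adjusted p was 0.138. Gm14303 was listed at 0 in 8 of the 10 vehicle libraries and at 2.51 to 718 in 9 of the 10 MDL-800 libraries (adjusted p 0.207). The lowest difference of all genes was that of the pseudogene Rps13-ps2 (-4.57, adjusted p 0.1478), named after its value was seen. It was listed at 0 in all 5 NP MDL-800 libraries and at 118 to 181 scaled FPKM in those with vehicle, and in AF it read 92.7, 210.5, 199, 126 and 119 with vehicle and 87.9, 153, 134, 37.9 and 0 with MDL-800. In NP alone its adjusted p was 4.03e-11, and without AF MDL-800 27 the adjusted p over both tissues was 0.02652. The MDL-800 libraries alone would not have met the filter of at least 1 FPKM in at least 5 libraries for Gm7332 or Rps13-ps2. Nor would the vehicle libraries alone for Gm14303, so these genes were kept only through the treatment in which they were high. Reads of processed pseudogenes can come from their parent genes, and which copy these reads came from was not tested.

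Sirt6, the gene of the enzyme that MDL-800 activates, was measured as mRNA, which does not report the activity of the protein. It measured 3.00, 4.70, 5.00, 6.11 and 6.34 scaled FPKM in NP with vehicle and 8.14, 8.21, 9.00, 8.94 and 8.15 in NP with MDL-800. In AF it measured 5.47, 5.01, 4.47, 2.85 and 5.84 with vehicle and 6.12, 2.69, 4.97, 6.26 and 7.69 with MDL-800. The NP groups were apart, and in AF 25, 29 and 30 of the MDL-800 libraries lay above all vehicle libraries while 27 was the lowest of all. As a single value the common difference of 0.42 gave p = 0.017 by an exact permutation of labels within tissue (63504 splits, two-sided), Benjamini-Hochberg adjusted 0.0598 over 4 single values tested. In the fit across genes its adjusted p was 0.4357 (SE 0.15), with 0.68 in NP and 0.16 in AF. With the GC slope of the libraries in the model its difference was 0.09.

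Of the 7 sirtuin genes, Sirt6 and Sirt2 (0.21) were higher and 0 lower at an unadjusted p under 0.05, beside 5.85% higher over all genes. The list's median was 0.19, with 0.21 in NP and 0.02 in AF. In NP alone 3 were higher at that level, beside 9.11% of all genes, and in AF alone 0, beside 0.922%. Sirt4 (0.20), Sirt3 (0.19), Sirt7 (0.11), Sirt5 (-0.04) and Sirt1 (-0.04) missed that level in the common fit. Of 20 histone acetylation and methylation enzymes, 2 were higher and 2 lower at that level, beside 5.85% and 3.06% over all genes. Among them were Hdac5 (0.33), a class IIa deacetylase, and Kat7 (-0.13), an acetyltransferase. Of 13 NAD metabolism genes 0 reached that level.

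Of 22 cartilage matrix genes tested, 3 were higher and 0 lower at an unadjusted p under 0.05, 13.6% beside 5.85% higher over all genes. The common difference was positive in 20 of the 22 (median 0.18), beside 7553 of all 16383 genes, the NP difference in 15 and the AF difference in 17, and Col11a1 was lower in NP at that level (-0.35). The 3 were Col11a2 (1.26), Col9a2 (0.85) and Col9a3 (0.76), chains of the minor collagens that build and coat collagen II fibrils. Col9a2 had a difference of 1.352 in AF and 0.345 in NP, where its means were 0.709 (vehicle) and 1.09 (MDL-800) scaled FPKM. Col11a2 measured 16.0, 11.0, 23.1, 25.0 and 32.8 scaled FPKM in NP with vehicle and 35.9, 33.5, 67.5, 50.2 and 46.7 in NP with MDL-800. Its AF libraries measured 121, 21.2, 30.9, 8.25 and 43.3 with vehicle and 77.1, 40.9, 116, 141 and 82.6 with MDL-800. AF vehicle 8 was as high as the highest MDL-800 libraries, and the adjusted p was 0.3198. Col2a1, the chain of collagen II itself, measured 134.1 ± 56.0 (vehicle) and 213.0 ± 55.5 (MDL-800) scaled FPKM in NP, against 387.3 ± 462.2 and 318.1 ± 103.6 in AF (SD, n = 5 each).

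Of 13 hypertrophy and mineral genes, 3 (23.1%) were higher and 0 lower at an unadjusted p under 0.05, beside 5.85% higher over all genes. They were Mgp (0.75), an inhibitor of calcification, Pth1r (0.66), the receptor of parathyroid hormone and PTHrP, and Phospho1 (0.57), a phosphatase of matrix vesicles. The list's median was 0.32, with -0.07 in NP and 0.57 in AF. Bone and osteoclast cells express such genes too. Of their 12 markers, 10 were tested and none was at 0 in every library. In the common fit 9 were positive and 1 (Ifitm5, with 0.107 in NP and 0.882 in AF) was higher at the unadjusted level. In AF alone 4 of the 10 were higher and 0 lower at that level, beside 0.922% and 0.726% of all genes. In NP alone 0 were higher and 0 lower, beside 9.11% and 4.99%. The median of these markers was -0.092 in NP and 0.74 in AF. Their summed level ranged in AF from 295 to 1240 scaled FPKM (vehicle) and from 826 to 2320 (MDL-800), and in NP from 31.5 to 150 and 19.6 to 195. With the mean of the bone and osteoclast markers as a covariate, 751 of all genes were higher and 445 lower at the unadjusted level, in place of 958 and 502. That fit was not counted for the cartilage and mineral lists, and the cause was not tested.

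Of 81 cytosolic ribosomal protein genes 13 (16.0%) were higher and 1 lower at an unadjusted p under 0.05, beside 5.85% higher over all genes, while the median was 0.02. In NP alone 21 were higher and 3 lower, beside 9.11% and 4.99% of all genes, and in AF alone 0 and 0. The higher ones included Rpl36 (1.61), Rplp2 (1.18), Rpl28 (1.12), Rps29 (1.02) and Rplp1 (0.96), and Rpl10 (-0.18) was lower. Rplp2 measured 227.5 ± 51.5 (vehicle) and 830.0 ± 207.5 (MDL-800) scaled FPKM in NP, against 232.0 ± 83.4 and 371.8 ± 233.3 in AF (SD, n = 5 each). The count was 3 with the GC slope in the model, 26 without AF MDL-800 27 and 24 without AF vehicle 9. Ribosomal protein genes have many processed pseudogenes, so their values are uncertain where reads were split between copies. Many of these genes are short, and of 62 protein-coding genes tested whose longest transcript has under 500 nucleotides 15 (24.2%) were higher and 1 lower, beside 6.33% higher of all 13703 protein-coding genes.

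Heat shock and unfolded protein genes had 5 of 18 (27.8%) higher and 0 lower at that level, beside 5.85% higher over all genes, with a median of 0.01. In NP alone 5 were higher and 1 lower, beside 9.11% and 4.99% of all genes, and in AF alone 0 and 0. The 5 were Hspa1a (0.61), Hspb1 (0.60), Hspa1b (0.37), Ddit3 (0.33) and Hsf1 (0.21). Hspa1a and Hspa1b are near-identical copies, so their separate values are uncertain. Of 15 NF-kB members and targets 3 were higher and 1 lower at that level, beside 5.85% and 3.06% over all genes. They were Nfkbib (0.43), Nfkbia (0.32), Nfkb2 (0.22) and Traf1 (-0.34), the first pair inhibitors of the pathway. Interferon response genes were negative in 14 of 15 with a median of -0.18, and 1 (Ifit2, -0.27) was lower at that level. Of the glycolysis and HIF targets (20), autophagy and lysosome genes (20) and proliferation genes (12) 0 reached it, and of the senescence and secreted factors 1 of 19 did, Cxcl2 (0.40).

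The remaining lists are read against 8.91% of all genes in either direction. Of 77 mitochondrial ribosomal protein genes 7 were higher and 5 lower (15.6%), with a median of -0.003 and differences from -0.29 to 0.49. Of 7 structural small RNAs 1 was higher, Rpph1 (1.78), the RNA of RNase P, and 1 lower, the vault RNA Vaultrc5 (-1.35). Of 17 matrix proteases and inhibitors 2 were higher, Timp4 (0.46) and Mmp16 (0.35, with -0.01 in NP and 0.71 in AF), and 1 lower, the lysosomal protease Ctsb (-0.17). Of 21 oxidant defence genes 2 were higher, Gpx3 (0.32) and catalase Cat (0.24), and 1 lower, the peroxiredoxin Prdx1 (-0.24). Of 76 respiratory chain genes 6 were higher and 1 lower, with Ndufb7 (0.83) and Uqcr11 (0.81), small subunits of complexes I and III, the highest. Only 31 of the 76 were positive, with a median of -0.035. In NP alone 11 were higher and 12 lower, beside 9.11% and 4.99% of all genes, and in AF alone 0 and 0. Of 27 DNA repair genes 0 were higher and 1 lower, the checkpoint kinase Atr (-0.16), and of 20 TGF-beta, BMP and Wnt genes 1 was lower, Smad2 (-0.18). The NP markers had 1 of 13 higher, Car12 (0.48, with -0.05 in NP), and the AF markers 1 of 16 lower, Kera (-0.56, with -0.04 in NP and -1.09 in AF).

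**Figure D4:**
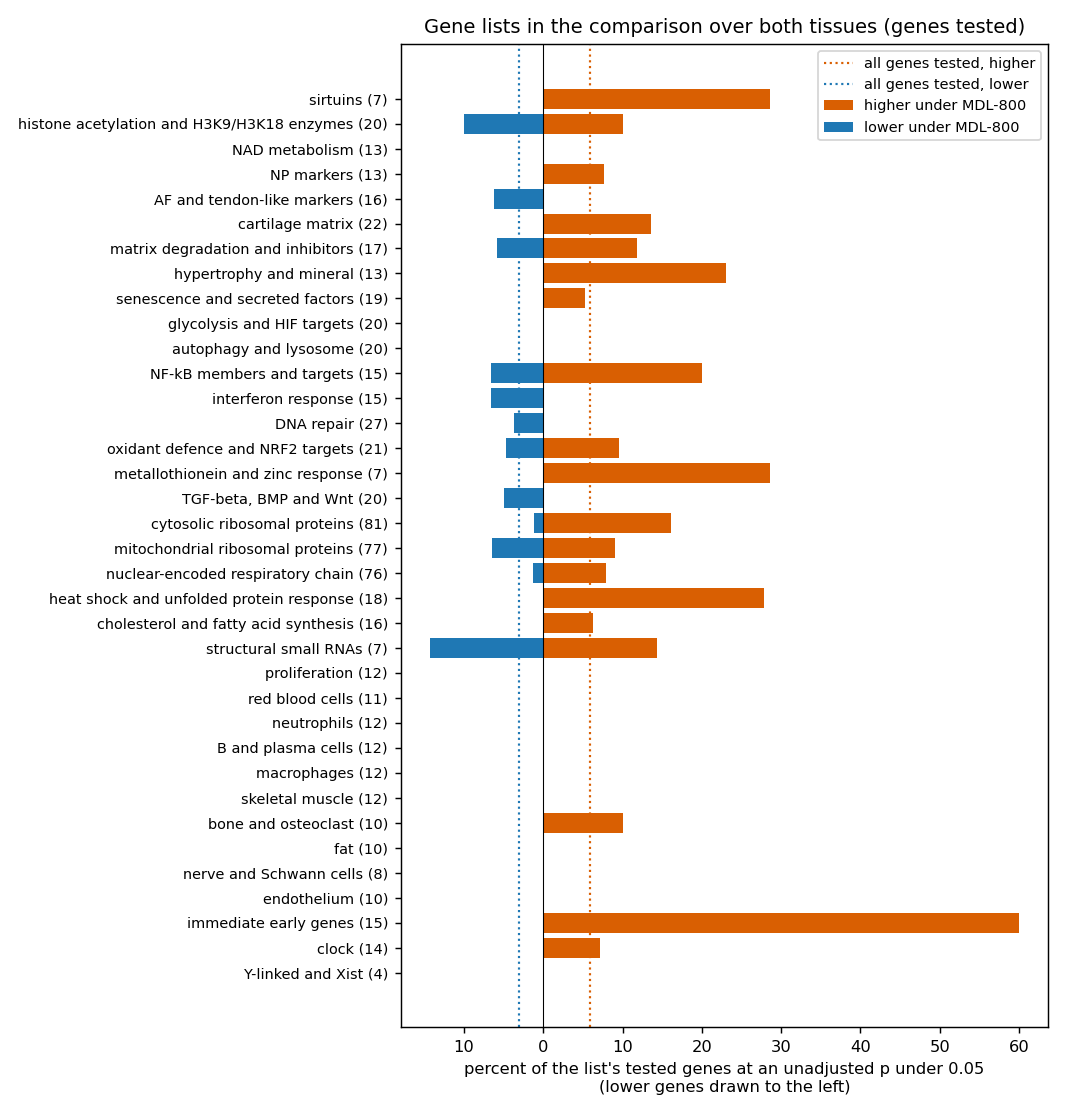
Share of each gene list at an unadjusted p under 0.05 in the comparison over both tissues, higher genes to the right in orange and lower genes to the left in blue, with the number of genes tested in brackets; dotted lines give the shares over all genes (5.85% higher, 3.06% lower). The immediate early genes stand at 60% higher. The sirtuins and the metallothionein list stand at 28.6%, heat shock and unfolded protein genes at 27.8%, and hypertrophy and mineral genes at 23.1%. These 4 lists hold 7 to 18 tested genes, so few genes set their shares, and many other lists have 0 higher genes.

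Markers of cells next to the disc were measured to show how much other tissue the libraries held. In the lists for skeletal muscle, fat, nerve, endothelium, macrophages, neutrophils, B lymphocytes with plasma cells, and red cells, 0 genes reached an unadjusted p under 0.05. Skeletal muscle markers were negative in 12 of 12 (median -0.43), with sums of 13.3 to 1610 (vehicle) and 15.1 to 312 (MDL-800) scaled FPKM in NP, and 1220 to 11100 and 1090 to 12100 in AF. Neutrophil markers were positive in 11 of 12 (median 0.19), with sums of 211 to 3360, 215 to 1850, 7910 to 21000 and 6560 to 35500 in the same order. With the mean of the skeletal muscle markers as a covariate, 882 genes were higher and 463 lower at that level, in place of 958 and 502. With the red cell markers the counts were 1046 and 535. No such fit was run for the markers of the other cells here, so their part was not tested.

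The base composition of the transcripts that scored differed between libraries. The GC slope of a library, the change in log2 level per 10 percentage points of GC of a gene relative to the other libraries of its tissue, was higher under MDL-800 by 0.12 over both tissues (exact permutation within tissue, two-sided, p = 0.0299, adjusted 0.0598 over 4), by 0.19 in NP and 0.05 in AF. NP vehicle 1 and 2 (-0.25 each), AF vehicle 12 (-0.27) and AF MDL-800 27 (-0.14) were the 4 low libraries, and all others lay between -0.02 and 0.12. Of the 958 higher genes, 709 lay in the highest of 4 equal bins of genes by GC content, 17.3% of the 4087 genes there, and 23 in the lowest bin. The median GC content was 57.1% for the higher genes, 46.0% for the lower genes and 49.3% for all.

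With the GC slope as a covariate, 595 genes were at an unadjusted p under 0.05, 306 higher and 289 lower, and the share of higher among them was 51.4% in place of 65.6%. With the GC trend removed from each library the counts were 721 and 357 (66.9% higher), and without the 4 low libraries 822 and 440 (65.1% higher), so these settings left the share of higher genes near that of the full set. This covariate and the treatment overlap, so their parts cannot be told apart in such a fit. Of the 102 short RNAs, 30 were lower with the covariate and 31 without the 4 low libraries, near the 35 of the full set. Junb had a difference of 0.90 with the covariate in place of 1.84, Mt1 0.68 in place of 1.01, and U2 -1.14 in place of -1.31.

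**Figure D5:**
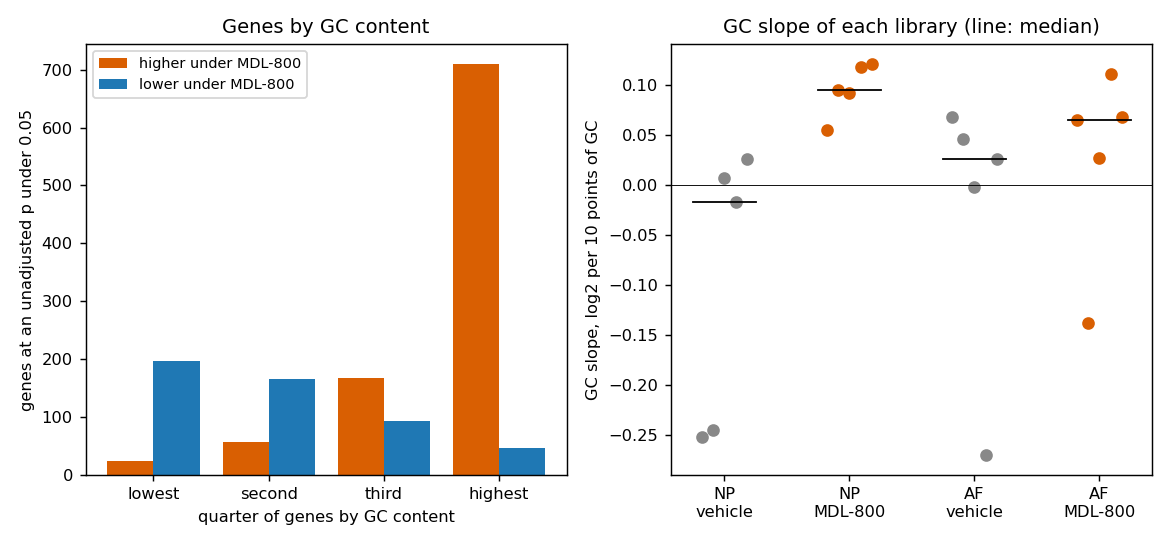
Left, the number of genes at an unadjusted p under 0.05, higher in orange and lower in blue, in each of 4 bins of genes by GC content; right, the GC slope of each library (points, log2 per 10 points of GC) with the group median as a line. The higher genes number 23, 56, 168 and 709 from the lowest to the highest bin, and 4 libraries lie below -0.1.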

How the data were processed

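The deposited table holds FPKM values per gene for 20 libraries, made by the authors; the submitters' processing notes name STAR 2.7.11b and mm10, and the program that assigned reads to genes is not given in the sources used here. Per the labels' protocols, libraries were stranded and ribosomal RNA depleted, from 50 ng RNA with 14 PCR cycles. FPKM were divided by a median-ratio factor per library, genes with at least 1 FPKM in at least 5 libraries were kept, and log2(scaled FPKM + 1) was tested with limma 3.58.1 in R 4.3.3 (trend, Benjamini-Hochberg), treatment plus tissue. Gene types, lengths and GC come from GENCODE M21 (51596 of 51789 identifiers matched) and promoters from RefSeq. Depth was estimated from the steps between low FPKM of 6647 single-exon genes, with 83.4% to 89.0% of values on whole steps; a count test was not run. On simulated data with 200 changed genes, the fit recovered 64% at a log2 change of 0.5, 87.5% at 1 and 98% at 2. False calls numbered 11, 7 and 7. The simulated noise was independent between genes and the changes were equal in both tissues, in genes of mean log2 level above 2 only. Shifts shared by many genes of a library were not simulated, so these shares may not hold for the real libraries. Named were the 10 genes with an assigned symbol per direction of smallest p, at least 5 mean FPKM and equal sign in both tissues, 2 predicted genes per direction, Sirt6, and up to 4 genes per list, shown as values since none passed; further list genes were named after their values were seen. Members and lists were chosen with earlier results of these data known. Alternatives changed the pseudocount, filter, scaling, variance model, covariates and libraries.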

Additional observations from a re-analysis of the deposited data

Results flagged for a closer look

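Single libraries stood apart in 7 of 168 sets of 5 libraries examined, by a gap to the nearest library of more than 0.71 of the group's range. About 1 in 20 sets does so by chance. For genes the gap and range were taken on log2(scaled FPKM + 1), while the levels below are scaled FPKM. Gm14303 was at 48.4 scaled FPKM in NP vehicle 6 and at 230.3 in AF vehicle 8 and listed at 0 in the other 8 vehicle libraries, a gap of 1 of the range in both groups. Rad23b was at 62.2 in AF vehicle 8 (gap 0.771) and Cct3 at 56.7 in NP MDL-800 22 (gap 0.732), each above the rest of its group. Egr3 was high in AF MDL-800 29 at 2.41 (gap 0.777) and Jund in AF vehicle 10 at 43.3 (gap 0.725). The GC slope of AF vehicle 12 was -0.27, below the rest of its group (gap 0.793).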

How the results depend on the processing

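The count of genes at an adjusted p under 0.05, 0 in the reported fit (1460 at an unadjusted p under 0.05), was 14 with 1 weight per library, 4 with 1 variance per tissue, 4 with the average of the tissues' effects in a fit of 4 group means, 1 without the 4 libraries of low GC slope and 41 in NP alone. Over left-out libraries it ranged from 0 to 17. The higher and lower genes at an unadjusted p under 0.05, 958 and 502, were 306 and 289 with the GC slope, 559 and 319 with Y-linked genes as covariate, 1493 and 818 in NP and 151 and 119 in AF, and 699 to 1445 and 379 to 719 over left-out libraries; the cause was not tested. Bone markers as covariate gave 751 and 445, skeletal muscle markers 882 and 463, and red cell markers 1046 and 535. The NP count of 41 ranged from 2 to 188 over left-out libraries, the AF count from 0 to 1 and the count for the difference between tissues from 0 to 1. Sirt6 as a single value ranged from 0.35 to 0.52 over left-out libraries. Values of opposite sign were Car12 -0.047 and Mmp16 -0.014 in NP alone, Dusp1 -0.018 with Y-linked genes and -0.17 without the 4 libraries, and Jund -0.13 with the GC trend removed and -0.002 in AF alone.

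Column names carry a second number that 8 pairs of NP and AF libraries share, which the labels do not explain. Deviations of same-numbered libraries correlated from -0.18 to 0.29, above 0.1 in 3 of 8 pairs. With that number as a replicate block (correlation 0.0813), chosen after seeing the data, 0 genes passed (lowest adjusted value 0.2486), and the unadjusted level was reached by 1295, 866 higher and 429 lower. The fits without the 4 libraries and with genes of at least 300 nucleotides (1391 genes, 0 passing) were also chosen after seeing the data. Depth limits low values, where 1 read is a large step of FPKM.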
